A study of Mus musculus with 8 samples.

Results

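The genes described here encode proteins of the peroxisome: the peroxins that build the organelle, proteins of its membrane, and enzymes of its matrix other than those of bile acid synthesis and the main beta-oxidation spiral. They were taken as a list of 45 gene symbols, of which 42 had a probe set among the 16492 tested. The 42 fall into 13 peroxins, 6 membrane proteins and 23 matrix or other enzymes. Far2, Paox and Nudt12 were not analysed here. Rows were found by Entrez gene number, which is the number in the probe set ID. The platform annotation lists the probe sets of 40 of the 42, and Prdx5 and Far1, which it lacks, were named by that number alone. Over the whole annotation, the gene number equals the probe set number for 15250 of 15270 probe sets.

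Liver RNA of 4 Amacr-/- mice was compared with that of 4 wild-type mice, 1 array per animal, the animals of each genotype being biological replicates. All 8 mice were males of the C57BL/6 strain aged 3 to 3.5 months, and the labels give no conditional allele, treatment or diet. Amacr encodes the racemase that turns branched-chain acyl-CoA esters, bile acid intermediates among them, into the form that peroxisomal oxidases accept. Values are log2 signals made by RMA, a method that corrects, normalizes and summarises the probes of each probe set.

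Peroxisomes are single-membrane organelles that import folded proteins. Peroxins recognise the targeting signal of a matrix protein, dock the cargo at the membrane, recycle the receptor and insert membrane proteins. In liver the organelle oxidises fatty acids that mitochondria handle poorly, shortens the side chain of bile acid precursors, starts ether lipid synthesis, and breaks down urate, glyoxylate and D-amino acids, and catalase removes the hydrogen peroxide that its oxidases release. Several genes of the list are known mainly from elsewhere in the cell: Mpv17 lies in the inner mitochondrial membrane, Abcd4 in the lysosome, and Xdh, Ide and much of Idh1 in the cytosol.

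Amacr checked the labels. Its signal was 5.47, 5.39, 5.52 and 5.23 in Amacr-/- replicates 1 to 4, against 12.03, 12.05, 12.06 and 11.68 in wild-type replicates 1 to 4. All 8 arrays went with their labels. Array medians lay between 6.62 and 6.66. Amacr-/- replicate 2 stood apart, with an array quality weight of 0.2998, against 0.935 to 1.75 for the other arrays. Markers of hepatocytes had a summed level, on the log2 scale, of 17.15 to 17.17 in Amacr-/- and 17.18 to 17.21 in wild-type livers, with 0 of 7 at an unadjusted p under 0.05. Kupffer cell markers differed between animals, with summed levels of 13.26, 13.12, 12.44 and 11.99 in Amacr-/- replicates 1 to 4 and 12.64 to 13.54 in wild-type livers. Exocrine pancreas markers summed to 10.42 in Amacr-/- replicate 1, 8.99 to 9.65 in the other Amacr-/- livers and 9.60 to 9.97 in wild-type livers. Cela1, the brightest of these markers, was not raised in that array, at 9.27 against 8.61 to 9.77 in the others. Cpa1, Pnlip and Ctrb1 read 7.66, 7.84 and 8.33 in Amacr-/- replicate 1, against at most 5.52, 5.65 and 5.88 in any other array. In whole liver, fewer cells of a type and less RNA per cell cannot be told apart.

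Pxmp4, Pxmp2 and Lonp2 had higher and Nudt7, Xdh, Hao1 and Abcd2 lower signal in Amacr-/- livers at an unadjusted p under 0.05, but no gene of the list passed after adjustment. Of the 42, 0 passed an adjusted p of 0.05 in limma, where 0.115% of all probe sets did, 0.0728% higher and 0.0424% lower in Amacr-/- livers. At an unadjusted p under 0.05 there were 7, or 16.7% of the 42, where 11.3% of all probe sets passed. They were 3 higher, where 5.66% of all probe sets were, and 4 lower, where 5.63% were. The groups did not overlap for 4 of the 42, or 9.52%, against 6.67% of all probe sets. The median difference, Amacr-/- minus wild-type, was -0.02 over the 42 and 0.02 over all probe sets, on the log2 scale. For 31 of the 42, or 73.8%, the 95% interval of the difference lay within 0.5 of 0 on either side, against 82.9% of all probe sets. The difference was 0.5 or more in size for 2 of the 42, Abcd2 and Xdh, or 4.76%, against 3.03% of all probe sets.

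**Figure D1:**
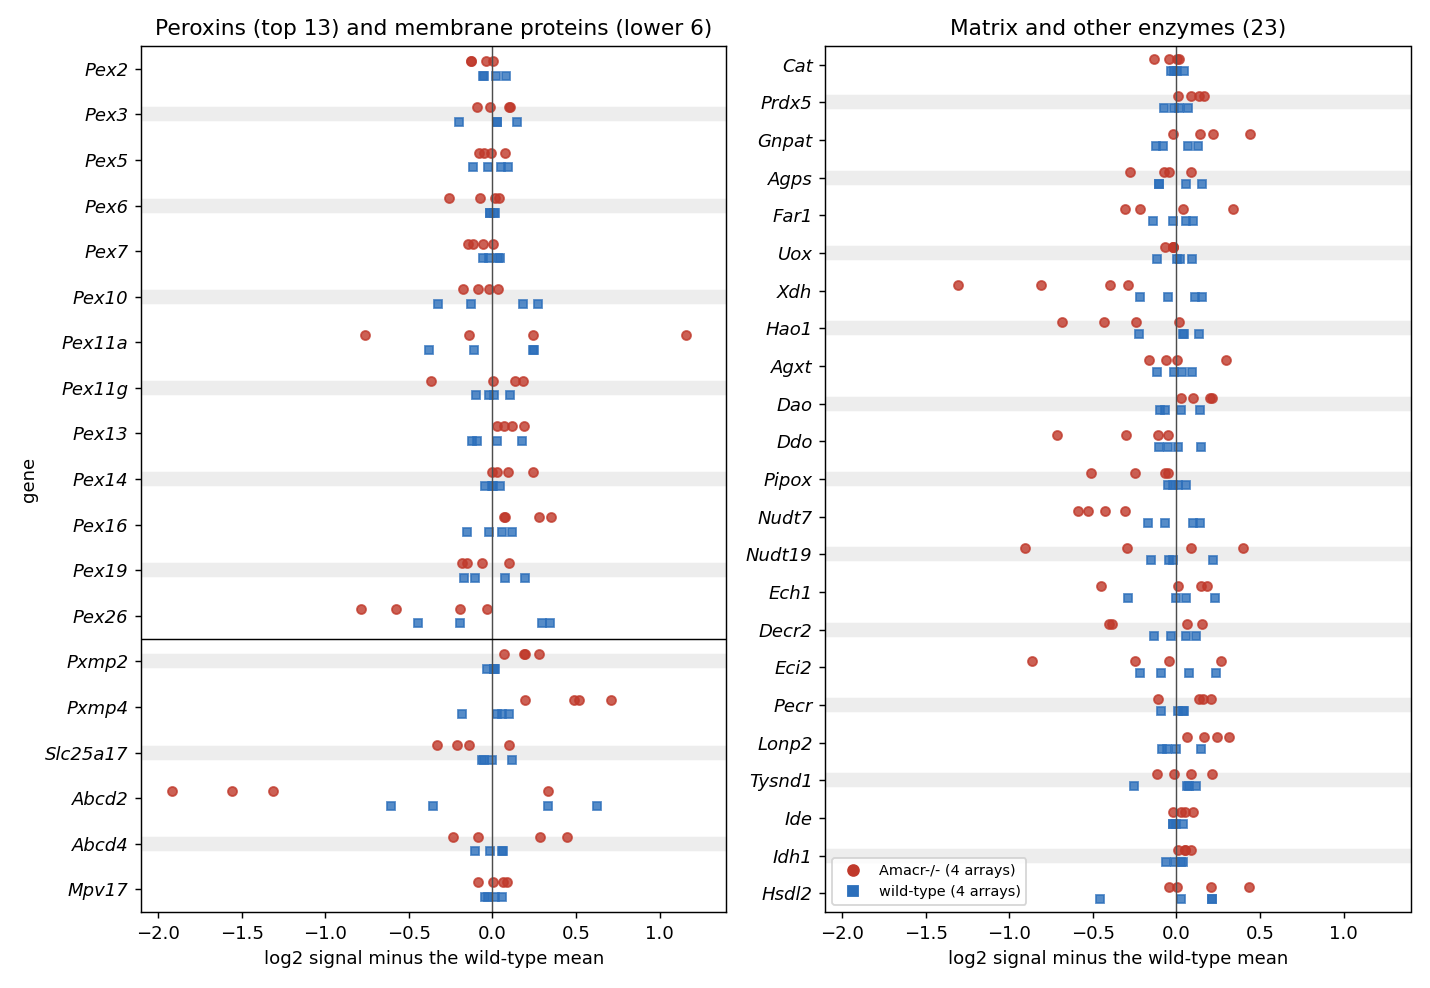
Log2 signal of each of the 42 genes in each array, minus the wild-type mean of that gene. Red circles are the 4 Amacr-/- arrays and blue squares the 4 wild-type arrays, with the 13 peroxins and 6 membrane proteins on the left and the 23 enzymes on the right. The groups are free of overlap for Pxmp2, Pxmp4, Nudt7 and Xdh.

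The peroxins had overlapping groups throughout. Of the 13, 5 had higher and 8 lower means in Amacr-/- livers, where 56.1% of all probe sets had higher means, and the median difference was -0.015. None of the 13 had an unadjusted p under 0.05, where 11.3% of all probe sets did, and the lowest limma adjusted p was 0.468. For 11 of the 13 the 95% interval lay within 0.5 of 0, the exceptions being Pex11a and Pex26.

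The import receptors showed small differences. Pex5, the receptor for the C-terminal targeting signal of most matrix proteins, differed by -0.015 (95% interval -0.17 to 0.14). Pex7, the receptor for the N-terminal signal, read 11.10, 11.01, 11.16 and 11.04 in Amacr-/- replicates 1 to 4, against 11.20, 11.14, 11.10 and 11.19 in wild-type replicates 1 to 4. The ranges of Pex7 overlapped, and its difference was -0.08 (interval -0.22 to 0.06).

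At the docking site, Pex13 read 7.61, 7.56, 7.68 and 7.52 in Amacr-/- livers and 7.52, 7.67, 7.37 and 7.40 in wild-type livers. Every Amacr-/- value of Pex13 fell inside or just above the wild-type range, and the difference was 0.10 (interval -0.08 to 0.29). Its partner Pex14 differed by 0.09 (interval -0.07 to 0.25). The ubiquitin ligases of receptor recycling, Pex2 and Pex10, differed by -0.07 (interval -0.22 to 0.07) and -0.06 (interval -0.36 to 0.23).

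Pex6 is an ATPase that pulls receptors back out of the membrane, and Pex26 anchors it there. Pex6 differed by -0.07 (interval -0.24 to 0.10). Pex26 had the lowest mean difference of the peroxins. It read 7.54, 7.75, 8.29 and 8.13 in Amacr-/- replicates 1 to 4, against 8.13, 8.67, 8.62 and 7.88 in wild-type replicates 1 to 4. Wild-type replicate 4 lay below 2 of the 4 Amacr-/- arrays, so the groups overlapped, and the difference of -0.40 (interval -0.89 to 0.09, limma adjusted p = 0.523) was close to the SD within the wild-type group, 0.38.

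Pex3, Pex16 and Pex19 bring proteins into the peroxisomal membrane. Pex16 had the highest mean difference of the peroxins. Its values were 10.44, 10.24, 10.51 and 10.23 in Amacr-/- livers and 10.14, 10.28, 10.01 and 10.22 in wild-type livers. Replicates 1 and 3 of Amacr-/- lay above all wild-type arrays and replicates 2 and 4 below the highest of them, and the difference was 0.19 (interval -0.01 to 0.40, limma adjusted p = 0.468). Pex19, the cytosolic carrier of membrane proteins, read 10.13, 9.97, 9.88 and 9.85 in Amacr-/- livers and 10.11, 10.23, 9.93 and 9.86 in wild-type livers. The 2 groups of Pex19 covered nearly the same range, and the difference of Pex3 was likewise small, 0.02 (interval -0.17 to 0.22).

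Pex11a and Pex11g belong to the family that elongates peroxisomes before they divide, and Pex11a is known in rodent liver as a gene induced by PPAR-alpha ligands. Pex11a varied more among Amacr-/- livers than any other peroxin measured. It read 10.26, 9.64, 11.56 and 10.64 in Amacr-/- replicates 1 to 4, a range of 1.92, against 10.64, 10.65, 10.02 and 10.29 in wild-type replicates 1 to 4, a range of 0.63. The highest and the lowest of the 8 values were both from Amacr-/- livers. The mean difference of 0.13 (SE 0.35, limma adjusted p = 0.918) was well inside the Amacr-/- SD of 0.80, and without Amacr-/- replicate 3 it was -0.22. Without wild-type replicate 3 it was -0.0017, and without Amacr-/- replicate 2 it was 0.42. Pex11g differed by -0.01 (interval -0.28 to 0.26).

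The promoter of Pex11a is shown because this gene varied most of the 13 peroxins in Amacr-/- livers. The 250 bases before its RefSeq start (GRCm38.p6, chr7:79743132-79743381, minus strand) are printed 5′ to 3′ on the strand of the gene, and capitals would mark a match to any of 5 motifs, searched on both strands. These were DR1 with at most 2 mismatches, the direct repeat of AGGTCA with 1 base between that PPAR-alpha and its partner bind, its half-site AGGTCA on its own, the CCAAT box, the GC box GGGCGG and the TATA box TATAAA. A DR1 without mismatches contains the half-site, and a match with a mismatch in each repeat need not. The window of Pex11a held 0 of the 5, which says only that these letters are not in it.
Pex11a: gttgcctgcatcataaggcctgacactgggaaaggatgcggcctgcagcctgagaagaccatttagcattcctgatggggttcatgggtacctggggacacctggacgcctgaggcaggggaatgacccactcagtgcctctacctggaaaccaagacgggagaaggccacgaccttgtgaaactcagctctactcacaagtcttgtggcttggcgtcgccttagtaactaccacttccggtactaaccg

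Membrane proteins held 2 of the 4 genes whose groups did not overlap. Of the 6, 4 had higher and 2 lower means in Amacr-/- livers, with a median difference of 0.06, and 3 had an unadjusted p under 0.05. Over all probe sets, 56.1% had higher means and 11.3% had an unadjusted p under 0.05. Pxmp4 and Pxmp2 were higher in every Amacr-/- array than in any wild-type array, as were 3.42% of all probe sets, and Abcd2 was lower in 3 of 4.

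Pxmp4 is an integral protein of the peroxisomal membrane whose transport function is not settled. It read 9.06, 9.35, 9.57 and 9.38 in Amacr-/- replicates 1 to 4, against 8.92, 8.96, 8.68 and 8.89 in wild-type replicates 1 to 4. All 4 Amacr-/- values lay above the wild-type ones, with replicate 1 the closest. The difference was 0.48 (SE 0.11, interval 0.22 to 0.73), or 1.39-fold, and did not pass (limma adjusted p = 0.166, unadjusted p = 0.00214). It was the highest difference among the 42.

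Pxmp2 forms a pore through which small solutes cross the peroxisomal membrane. Its values were 11.76, 11.88, 11.97 and 11.89 in Amacr-/- livers and 11.71, 11.66, 11.70 and 11.70 in wild-type livers. The wild-type arrays lay within 0.05 of each other and every Amacr-/- array lay above them, but the step was small: 0.18 (SE 0.06, interval 0.04 to 0.33), or 1.13-fold (limma adjusted p = 0.330).

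Abcd2 is a half-transporter that brings very long-chain acyl-CoA into the peroxisome. It gave the widest values of the list, 5.02, 6.67, 4.78 and 4.42 in Amacr-/- replicates 1 to 4 and 6.96, 6.67, 5.73 and 5.98 in wild-type replicates 1 to 4. Amacr-/- replicate 2 equalled a wild-type array and the other 3 lay below all wild-type arrays. The difference was -1.11 (SE 0.47, interval -2.18 to -0.05, limma adjusted p = 0.420), and without Amacr-/- replicate 2 it was -1.60 (adjusted p = 0.0858). Of the list, Abcd2 and Slc25a17 lie on chromosome 15, as do Amacr and Ppara, which is described below. The mean signal of Abcd2 lay under the median of all probe sets, 6.65, as did those of Agps, Far1 and Dao, and how much of such dim signal is background was not tested because the table held no detection calls.

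Slc25a17, the carrier that exchanges coenzymes such as CoA and NAD across the membrane, read 9.74, 9.50, 9.31 and 9.43 in Amacr-/- livers and 9.58, 9.64, 9.76 and 9.59 in wild-type livers. Replicates 2 to 4 of Amacr-/- lay below the wild-type range and replicate 1 inside it, for a difference of -0.15 (interval -0.37 to 0.07). It was -0.23 without Amacr-/- replicate 1 and -0.086 without Amacr-/- replicate 3. The lysosomal cobalamin transporter Abcd4 read 6.85, 6.70, 7.38 and 7.22 in Amacr-/- livers and 6.83, 6.99, 6.92 and 7.00 in wild-type livers. Its Amacr-/- arrays lay on both sides of the wild-type range, and the mean differed by 0.10 (interval -0.22 to 0.42). Mpv17 differed by 0.02 (interval -0.13 to 0.16).

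The promoter of Pxmp4 is printed as that of the gene with the highest difference, and that of Nudt7, described below, as that of the gene with the lowest unadjusted p. Both are the 250 bases before a RefSeq start (GRCm38.p6), 5′ to 3′ on the strand of the gene, chr2:154603674-154603923 on the minus strand for Pxmp4 and chr8:114133368-114133617 on the plus strand for Nudt7. Capitals mark the CCAAT box, which reads ATTGG when it lies on the other strand, and the GC box, which reads CCGCCC when it lies there.
Pxmp4: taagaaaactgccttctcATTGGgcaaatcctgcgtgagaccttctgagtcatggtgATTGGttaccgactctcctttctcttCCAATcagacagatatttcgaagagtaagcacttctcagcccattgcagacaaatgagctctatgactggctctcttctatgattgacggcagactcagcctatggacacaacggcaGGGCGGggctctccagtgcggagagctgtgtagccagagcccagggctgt
Nudt7: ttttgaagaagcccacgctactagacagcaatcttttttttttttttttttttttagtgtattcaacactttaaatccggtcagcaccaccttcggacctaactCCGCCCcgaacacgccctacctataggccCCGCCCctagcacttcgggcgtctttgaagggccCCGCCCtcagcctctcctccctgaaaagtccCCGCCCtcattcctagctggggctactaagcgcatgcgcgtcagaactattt

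Pxmp4 held 3 CCAAT boxes, from 232, 193 and 167 bases before the start, and 1 GC box. Nudt7 held 4 GC boxes, the nearest from 52 bases before the start, and a second RefSeq start of Nudt7 lies within the same stretch. Promoter windows were matched for 36 of the 42 genes. The GC box was in 24 of these 36 (66.7%), against 35.4% of all 27025 genes with a window, and the CCAAT box in 15 of 36 (41.7%), against 37.5%. The 27025 were not limited to genes with signal in liver, whereas 38 of the 42 listed genes were at or above the median signal. A comparison with genes of like signal was not made. DR1 was in 1 of 36 (2.78%), that of Cat, against 3.72%. The half-site was in 5 of 36 (13.9%), against 15.8%, and the TATA box in 3 of 36 (8.33%), against 14.3%.

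Among the 23 matrix and other enzymes, 10 had higher and 13 lower means in Amacr-/- livers, with a median difference of -0.03. Higher means were found for 56.1% of all probe sets. At an unadjusted p under 0.05 there were 4, or 17.4%, where 11.3% of all probe sets passed. Of these 4, Lonp2 was higher and Nudt7, Xdh and Hao1 were lower. The lower ones are 3 of 23, where 5.63% of all probe sets were lower at that p. Nudt7 and Xdh were lower in every Amacr-/- array than in any wild-type array, as were 3.25% of all probe sets.

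Nudt7 is the main peroxisomal hydrolase of coenzyme A in mouse liver, splitting CoA and its esters. It read 13.30, 13.02, 13.18 and 13.08 in Amacr-/- replicates 1 to 4, against 13.44, 13.75, 13.71 and 13.54 in wild-type replicates 1 to 4. The gap between the highest Amacr-/- and the lowest wild-type array was 0.14. The difference was -0.47 (SE 0.09, interval -0.68 to -0.25), or 1.38-fold lower, with the lowest unadjusted p of the 42, 0.00075, rank 105 among all probe sets, and limma adjusted p = 0.116. It ranged from -0.52 to -0.42 over the fits that left out 1 array. Its relative Nudt19, which also hydrolyses CoA species and is best known from kidney, differed by -0.18 (interval -0.72 to 0.37) and spread from 9.12 in Amacr-/- replicate 4 to 10.42 in replicate 2.

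Xdh and Uox are consecutive enzymes of purine breakdown, making urate and then oxidising it, and in rodents Uox forms the crystalline core of the peroxisome. Xdh read 10.32, 10.21, 9.80 and 9.30 in Amacr-/- replicates 1 to 4, against 10.56, 10.39, 10.72 and 10.76 in wild-type replicates 1 to 4. All 4 Amacr-/- values lay below the wild-type ones, replicates 1 and 2 narrowly and replicates 3 and 4 widely. The difference was -0.70 (SE 0.21, interval -1.17 to -0.23), or 1.62-fold lower (limma adjusted p = 0.258), and it was -0.50 without Amacr-/- replicate 4. Amacr-/- replicates 3 and 4 also had the lowest summed Kupffer cell markers of the 8 arrays, given above, and all 10 of those markers had lower means in Amacr-/- livers, 1 of them at an unadjusted p under 0.05. Both neutrophil markers measured, S100a8 and S100a9, had lower means too, each at an unadjusted p under 0.05. Over all probe sets, 7248 of 16492 had lower means and 5.63% were lower at that p. The groups overlapped for both neutrophil markers, and neither passed (limma adjusted p = 0.435 for S100a8 and 0.378 for S100a9). Both were dim, with mean signals of 5.89 and 6.61, under the median of all probe sets, 6.65. Summed neutrophil levels were 6.80 to 7.48 in Amacr-/- and 7.08 to 7.87 in wild-type livers. The part of the Kupffer cell and neutrophil markers in the Xdh value was not tested. Uox differed by -0.03 (interval -0.18 to 0.12).

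**Figure D2:**
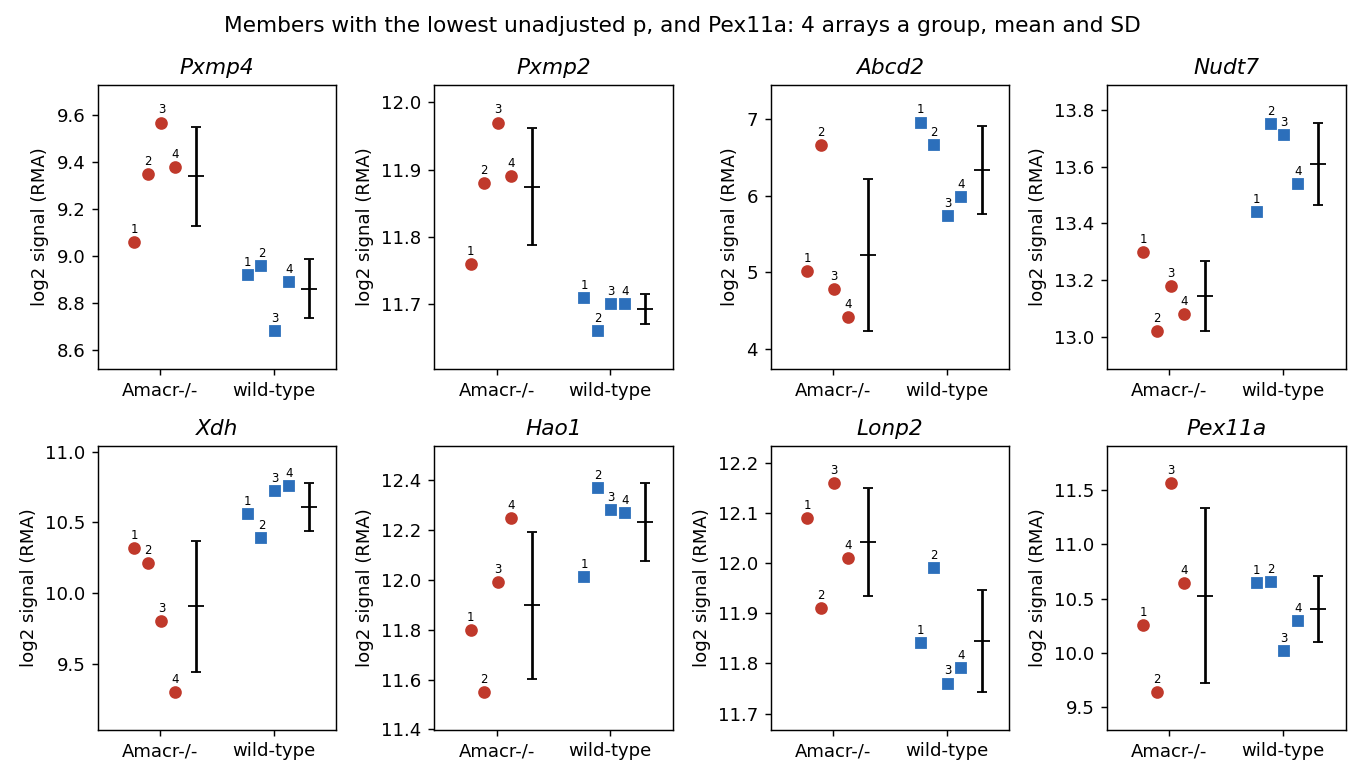
Log2 signal per array (numbered by replicate) of the 7 genes with an unadjusted p under 0.05 and of Pex11a, with Amacr-/- in red on the left and wild-type in blue on the right. Black bars are the mean and SD of 4 arrays, and each panel has its own axis, which does not start at 0.

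Of the glyoxylate enzymes, Hao1 was lower in 3 of 4 Amacr-/- arrays. Hao1, which oxidises glycolate to glyoxylate, read 11.80, 11.55, 11.99 and 12.25 in Amacr-/- replicates 1 to 4, against 12.01, 12.37, 12.28 and 12.27 in wild-type replicates 1 to 4. Replicates 1 to 3 of Amacr-/- lay below the wild-type range and replicate 4 within it. The difference was -0.34 (SE 0.15, interval -0.66 to -0.01, limma adjusted p = 0.431), and it was -0.22 without Amacr-/- replicate 2. Agxt, which turns glyoxylate into glycine, differed by 0.02 (interval -0.21 to 0.25).

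Of the amino acid oxidases, Ddo and Pipox had lower and Dao a higher mean. Ddo, for acidic D-amino acids, differed by -0.30 (interval -0.61 to 0.02) and Pipox, for pipecolate and sarcosine, by -0.22 (interval -0.45 to 0.01). In Amacr-/- replicate 2, Ddo, Pipox and Hao1 each had their lowest value of the 8 arrays, 7.26, 11.33 and 11.55. Without that array the difference was -0.16 for Ddo and -0.12 for Pipox. The same array had the highest summed cholangiocyte markers, 12.20, against at most 11.30 in any other array, and the highest summed stellate cell and fibroblast markers, 12.63, against at most 12.10. Spp1, at 12.10, made up most of the first sum, and Col3a1 and Dcn, at 10.85 and 11.31, most of the second. Krt7, Des and Reln were not highest in that array, and the other markers of both sets were. The part of these markers in the Ddo, Pipox and Hao1 values was not tested. Dao, for neutral D-amino acids, was dim and differed by 0.14 (interval -0.04 to 0.31).

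Lonp2 and Tysnd1 are the proteases that process and clear matrix proteins. Lonp2 read 12.09, 11.91, 12.16 and 12.01 in Amacr-/- livers and 11.84, 11.99, 11.76 and 11.79 in wild-type livers. The groups overlapped only in that Amacr-/- replicate 2 lay below wild-type replicate 2, and the difference was 0.20 (SE 0.08, interval 0.02 to 0.38, limma adjusted p = 0.400). Tysnd1 differed by 0.04 (interval -0.19 to 0.28) and Ide, a protease found mostly in the cytosol, by 0.04 (interval -0.09 to 0.17).

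Ether lipid synthesis begins with Gnpat and Agps. Gnpat read 9.35, 9.57, 9.27 and 9.11 in Amacr-/- livers and 9.05, 9.26, 9.20 and 9.01 in wild-type livers. Replicates 1 to 3 of Amacr-/- lay above the wild-type range and replicate 4 within it, for a difference of 0.20 (interval -0.04 to 0.43), which was 0.11 without Amacr-/- replicate 2. Agps differed by -0.08 (interval -0.29 to 0.14), and Far1, which supplies the fatty alcohol, by -0.04 (interval -0.35 to 0.27).

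The antioxidant enzymes had overlapping groups. Cat, catalase, lay between 13.46 and 13.61 in Amacr-/- livers and between 13.56 and 13.64 in wild-type livers, a difference of -0.04 (interval -0.18 to 0.10). Prdx5 differed by 0.10 (interval -0.05 to 0.25).

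Enzymes that prepare unsaturated and branched acyl-CoA for oxidation, Ech1, Decr2, Eci2 and Pecr, differed by -0.03, -0.14, -0.22 and 0.10. None of these 4 had an unadjusted p under 0.05. Without Amacr-/- replicate 2 the difference was -0.0083 for Eci2 and -0.055 for Decr2. Without Amacr-/- replicate 4 that of Decr2 was -0.062. Eci2 ranged from 10.31 in replicate 2 to 11.44 in replicate 3 of Amacr-/-, wider than the wild-type range of 10.96 to 11.41. Hsdl2, a dehydrogenase-like protein, read 9.99, 9.74, 10.22 and 9.79 in Amacr-/- livers and 10.00, 10.00, 9.81 and 9.33 in wild-type livers. Its ranges overlapped, with a difference of 0.15 (interval -0.22 to 0.52), and Idh1, which supplies NADPH, differed by 0.05 (interval -0.08 to 0.18).

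**Figure D3:**
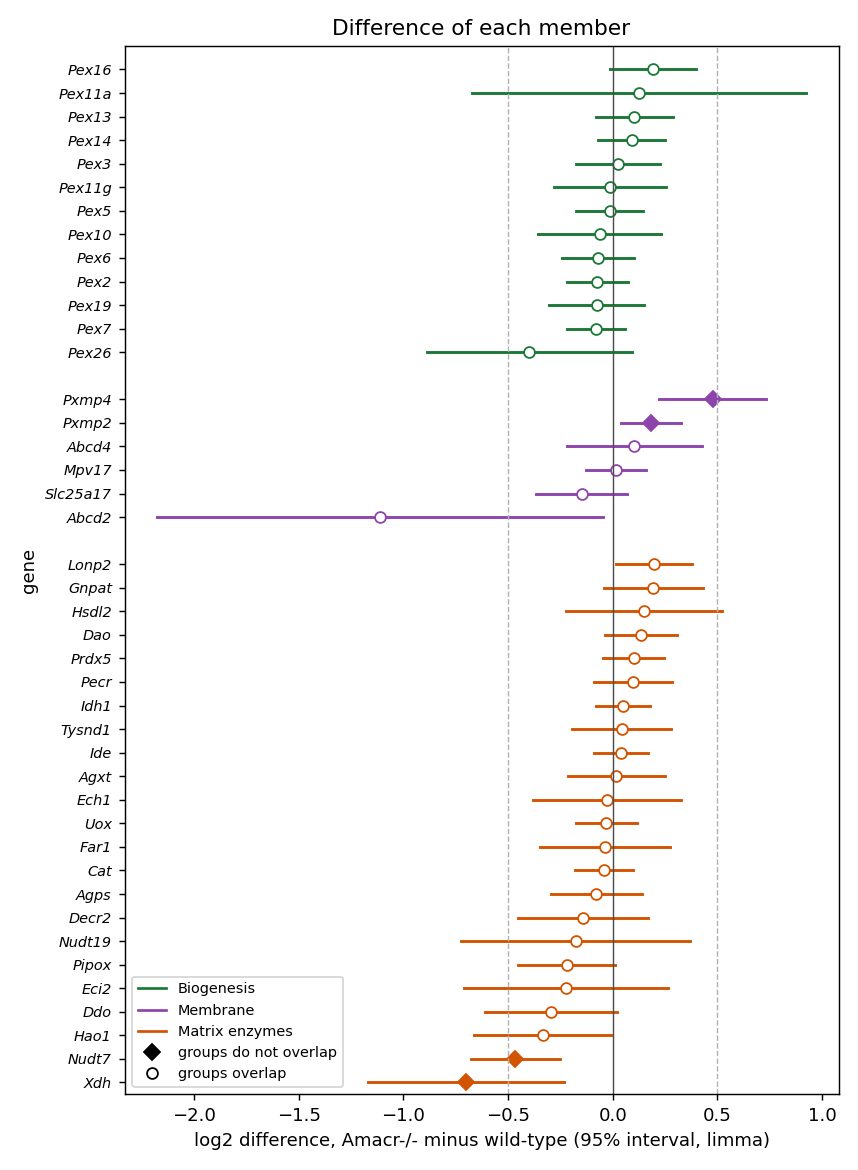
Log2 difference, Amacr-/- minus wild-type, of each of the 42 genes with its 95% interval from limma. Filled diamonds mark genes whose groups do not overlap and dashed lines mark 0.5 on either side of 0. Only the differences of Abcd2 and Xdh lie beyond that distance, though the intervals of other genes also cross the lines.

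The genes varied more among Amacr-/- than among wild-type animals to about the extent that all probe sets did. The SD was larger in Amacr-/- than in wild-type livers for 30 of the 42 genes, or 71.4%, against 66.7% of all probe sets, and its median was 0.14 in Amacr-/- and 0.11 in wild-type livers, both over the 42 and over all probe sets. It was larger in Amacr-/- for all 6 membrane proteins, for 7 of 13 peroxins and for 17 of 23 enzymes. Abcd2, Pex11a, Nudt19, Eci2 and Xdh had the widest ranges in Amacr-/- livers, 2.25, 1.92, 1.30, 1.13 and 1.02.

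The animals differed in how often they held the lowest or highest value. Amacr-/- replicate 2 had the lowest value of the 8 arrays for 12 of the 42 genes, or 28.6%, against 24.5% of all probe sets. Amacr-/- replicate 3 had the highest for 14, or 33.3%, against 19.4% of all probe sets. Replicate 3 was the highest and replicate 2 the lowest Amacr-/- array for 10 of the 42, or 23.8%, against 20.1% of all probe sets.

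**Figure D4:**
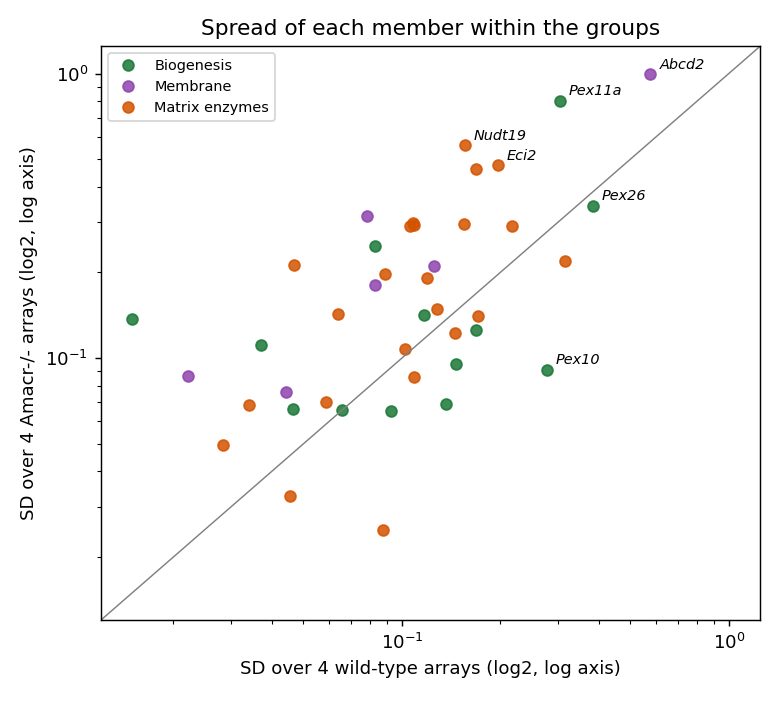
SD of each of the 42 genes over the 4 Amacr-/- arrays (vertical) against that over the 4 wild-type arrays (horizontal), both on log axes, coloured by role. Points above the diagonal, 30 of 42, varied more in Amacr-/- livers.

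Other genes of the organelle were read alongside. Of 16 genes of peroxisomal oxidation 0 passed in either direction and 12 had higher means, where 56.1% of all probe sets did. Acox2 and Ehhadh were higher in every Amacr-/- array than in any wild-type array, as were 3.42% of all probe sets. Acox2, the oxidase of branched chains and bile acid precursors, differed by 0.67 (limma adjusted p = 0.116). Ehhadh, the bifunctional enzyme of the spiral, read 12.76, 13.15, 12.73 and 12.05 in Amacr-/- livers and 12.01, 11.93, 11.76 and 11.60 in wild-type livers (difference 0.85, limma adjusted p = 0.177). Its highest array was Amacr-/- replicate 2, the array in which Pex11a was lowest.

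Of 7 other matrix genes 0 passed, and Gstk1, a glutathione transferase, was higher without overlap by 0.17 (adjusted p = 0.409). Of 6 neighbours of the urate and glyoxylate steps and of 5 of ether lipid synthesis 0 passed. Ebp, a sterol isomerase listed with the ether lipid genes, was higher without overlap by 0.23 (adjusted p = 0.352). Among 5 regulators 0 passed, and all 5 had lower means in Amacr-/- livers, where 7248 of all 16492 probe sets did. Ppara, Rxra and Nr1h4 were lower in every Amacr-/- array than in any wild-type array, as were 3.25% of all probe sets. Ppara, the receptor that drives many peroxisomal genes in rodent liver, read 10.61, 10.54, 10.87 and 10.63 in Amacr-/- livers and 11.53, 11.27, 10.97 and 11.39 in wild-type livers (difference -0.63, limma adjusted p = 0.116). Rxra, its partner on DNA, differed by -0.27 (limma adjusted p = 0.385), and Nr1h4, the bile acid receptor, by -0.49 (limma adjusted p = 0.136). Ppara lies on chromosome 15, as does Amacr, and whether that bears on its value was not tested. Distances along the chromosome were not compared. Pla2g6, of the ether lipid neighbours, lies on the same chromosome. Its mean was higher in Amacr-/- livers, with overlapping groups (difference 0.59, limma adjusted p = 0.389).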

How the data were processed

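Log2 values of liver RNA arrays were deposited as 1 table, which the authors made with RMA, per the submitters' processing notes. Versions, array software, filters, batch correction and genome build are not given in the sources used here. Values have 2 decimals. Of 16556 rows, 64 array controls were left out. Genotypes were compared in limma 3.58.1 (R 4.3.3), by lmFit and eBayes on all 8 arrays without covariates, two-sided, with Benjamini-Hochberg adjustment over all 16492 probe sets and a threshold of 0.05. The number of arrays, 4 per group, limits the precision. The steps were tested on simulated data, in which the added differences were 1 or 2 in size on the log2 scale. Smaller differences, such as most of those reported here, were not simulated. Sequences are from RefSeq (GRCm38.p6).

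The genes, their division by role and the other lists were chosen with earlier results of these data known. A further list, of other biogenesis genes, is not reported here. Values per array were given for genes past an adjusted or unadjusted p of 0.05, for genes without overlap and for the 3 largest differences in each direction by role. Same-numbered animals were not paired: the correlation of their deviations ran from -0.115 to 0.092, and 0.1 was required of every pair. Alternatives were leaving out arrays, a replicate block, a variance trend, robust variances, array weights, controls kept, dim probe sets removed and 2 other scalings.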

Additional observations from a re-analysis of the deposited data

Results flagged for a closer look

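Of 90 groups of 4 arrays examined, 3 held an array far from the other 3, and chance gives about 1 in 20 such groups. Among Amacr-/- arrays, Uox was 13.95 in replicate 1 and 14.00 in each of replicates 2 to 4. Among wild-type arrays, replicate 4 had a Tysnd1 signal of 9.23, and those of replicates 1 to 3 lay between 9.55 and 9.60. For the 23 enzymes, the median level set against their wild-type means stood at 0.030 in Amacr-/- replicate 1, while replicates 2 to 4 each stood at -0.018.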

How the results depend on the processing

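None of the 42 genes passed an adjusted p of 0.05 by limma in any of the 17 alternatives that included it. Abcd2, Agps, Far1 and Dao were in 16 of these, since they are not among the brighter probe sets. The number at an unadjusted p under 0.05 lay between 5 and 9. The number without overlap, 4 with all arrays, grows with fewer arrays over the whole table too. It was 4 to 8 when 1 array was left out, with 8.65 to 16.1% of all probe sets. Without Amacr-/- replicate 2 it was 8 of 42 (19.0%), against 16.1% of all probe sets. Without Amacr-/- replicate 4 it was 8 (19.0%), against 9.27%, and without wild-type replicate 2 it was 7 (16.7%), against 8.65%. Without Amacr-/- replicate 2 and wild-type replicate 4 together it was 9 (21.4%), against 23.9%. The median of the membrane proteins ran from -0.0083 to 0.11 and that of the enzymes from -0.055 to 0.028 over the fits without 1 array, and that of the peroxins, -0.015, was 0.022 after quantile normalization. Calls over the whole table, 19 as reported, came to between 2 and 39 when 1 array was left out, 39 without the same 2 arrays, 75 with array weights, 53 among the brighter probe sets, 38 after quantile normalization and 1 with a replicate block; the cause was not tested. The block changed no call among the 42 genes.

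For 28 of the 42 genes the sign of the difference was the same in every alternative that included them, 16 for Abcd2, Agps and Dao and 17 for the rest. Where 1 array was left out, the sign turned for Pex3 (-0.043 to 0.074), Pex5 (-0.054 to 0.016), Pex10 (-0.17 to 0.028), Pex11a (-0.22 to 0.42), Pex11g (-0.078 to 0.11), Abcd4 (-0.012 to 0.22), Mpv17 (-0.0050 to 0.052), Far1 (-0.16 to 0.053), Uox (-0.069 to 0.0008), Agxt (-0.075 to 0.078), Nudt19 (-0.37 to 0.064), Ech1 (-0.12 to 0.11), Tysnd1 (-0.043 to 0.095) and Hsdl2 (-0.0017 to 0.22). Quantile normalization turned Pex5 to 0.022, Pex11g to 0.028 and Uox to 0.0041, and array weights turned Agxt to -0.024. Agxt was -0.043 without Amacr-/- replicate 2 and wild-type replicate 4 together. Signal over background was not given, which limits the dim genes.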
